A study of Mus musculus with 28 samples.

Results

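Hepcidin is the liver hormone that limits the entry of iron into the blood, and its 2 mouse genes, Hamp and Hamp2, are transcribed most strongly by hepatocytes in the middle of the liver lobule. Among hepatocytes from that middle region, pairs rich in hepcidin transcripts were compared here with pairs poor in them. A pair is a hepatocyte sorted with an attached CD31+ cell, CD31 being a surface protein of endothelial cells. The pairs came from livers of 3 C57BL/6 male mice aged 6 or 7 weeks, kept in a reversed light cycle and fasted for 2 h in the morning, anesthetized with ketamine and xylazine and perfused with collagenase, so that all hepcidin-high and hepcidin-low pairs share these treatments. The series also holds single non-parenchymal cells of 2 older mice of 3 and 4 months, used here only for levels of Hamp, Hamp2 and Cxcl9 beside those of pairs. No hepatocyte was treated or mutated: the groups are the upper and lower ends of the measured share of hepcidin transcripts. Variation between cells cannot be told apart in them from differences between mice or libraries, since no source ties a well to either.

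The groups were chosen from measured values. For each of the 4621 pairs, the summed transcripts of the pericentral genes Cyp2e1, Cyp2c29 and Oat and of the periportal genes Cyp2f2 and Hal, each sum divided by its mean over pairs, gave a position score from 0 (periportal, near the portal vein) to 1 (pericentral, near the central vein). The 2231 pairs strictly between the 25th percentile (0.0844) and the 75th percentile (1) of that score were taken as mid-lobular. The 25% of them with the highest share of Hamp and Hamp2 among gene UMIs (unique molecular identifiers, each counting 1 captured transcript) is the hepcidin-high group of 558 pairs. The 25% with the lowest share is the hepcidin-low group, also of 558 pairs, so that the groups hold 1116 of 4621 pairs. The limits lay at 1341 hepcidin UMIs per 1000000 gene UMIs (CPM, used for all levels below), where the nearest pair outside the high group had 1340 CPM, and at 211 CPM, with pairs just inside and just outside the low group both at 211 CPM. Since 1234 pairs had no Cyp2f2 or Hal UMI and a score of exactly 1, the upper percentile fell on that value, and the inclusive reading of the limits would have kept 3468 pairs.

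Hepcidin binds the iron exporter ferroportin (Slc40a1) and causes its degradation, which holds iron inside gut cells, macrophages and hepatocytes. Its transcription in hepatocytes is driven by bone morphogenetic proteins, of which Bmp2 and Bmp6 are made by liver endothelial cells, through BMP receptors, hemojuvelin and the SMAD proteins, and the protease Tmprss6 damps that signal. Inflammation raises hepcidin through interleukin-6 and STAT3, the same route that induces acute-phase proteins such as serum amyloid A.

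Both promoters are shown because the 2 genes were summed to form the groups, while of the motifs tied to BMP and to interleukin-6 signals 1 is shared between them and 1 is not. The windows are RefSeq sequences of build GRCm38.p6, both on the minus strand, printed in the direction of transcription: Hamp at chr7:30943980-30944279 and Hamp2 at chr7:30924132-30924431. Capitals mark GGCGCC, the core of a BMP response element, and TTCNNNGAA, the form of a STAT site, searched on both strands.
Hamp: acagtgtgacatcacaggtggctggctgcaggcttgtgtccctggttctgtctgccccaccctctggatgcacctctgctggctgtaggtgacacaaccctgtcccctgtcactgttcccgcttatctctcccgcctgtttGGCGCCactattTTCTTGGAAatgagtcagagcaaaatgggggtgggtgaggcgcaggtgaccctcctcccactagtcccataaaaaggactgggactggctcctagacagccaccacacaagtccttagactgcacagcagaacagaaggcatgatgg
Hamp2: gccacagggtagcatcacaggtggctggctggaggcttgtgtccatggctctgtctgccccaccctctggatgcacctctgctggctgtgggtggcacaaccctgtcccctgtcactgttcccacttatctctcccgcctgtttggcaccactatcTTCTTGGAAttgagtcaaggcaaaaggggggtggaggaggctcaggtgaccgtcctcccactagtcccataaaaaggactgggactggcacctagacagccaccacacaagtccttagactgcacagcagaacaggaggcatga
Over 297 aligned bases the windows were 92.9% identical. The Hamp window held GGCGCC at positions 142 to 147, counted from its 5′ end. The aligned stretch of Hamp2 differed there by G145A, giving the base of Hamp, its position in the Hamp window and the base of Hamp2, and the Hamp2 window had no other match. Both windows held the STAT form as TTCTTGGAA, at positions 154 to 162 in Hamp and 157 to 165 in Hamp2. Of 27025 windows of this length, 11.96% held GGCGCC and 8.47% held TTCNNNGAA, so a match of letters alone does not show a working site. Whether these matches act as sites was not tested here.

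Hamp reached 1185 CPM in hepcidin-high pairs (exact Poisson interval 1160 to 1210), against 42.2 CPM in hepcidin-low pairs (37.5 to 47.3). Single pairs held from 0 to 87 Hamp UMIs, with a median of 13, in the high group, and from 0 to 7, with a median of 0, in the low group. Hamp2 reached 1125 CPM in high and 23.9 CPM in low pairs. Its UMIs per pair ran from 0 to 186 with a median of 6 in the high group and from 0 to 4 with a median of 0 in the low group. These differences define the groups and are no result. Of the low pairs, 295 had no UMI of either gene. The median depth was 10790 gene UMIs over all 558 low pairs and 11416.5 over the high pairs. A stricter choice kept fewer mid-lobular pairs at each end. Its low group, 223 pairs that all lacked a UMI of either gene, had a median depth of 8866 gene UMIs. Its high group, also of 223 pairs, had 10644. The part of depth in the missing hepcidin UMIs was not tested. In single non-parenchymal cells, which should lack hepcidin, Hamp stood at 93.6 CPM and Hamp2 at 16.9 CPM at a median depth of 526.5 UMIs. All intervals here are at 95% and cover counting error only. No source ties a well to a library or a mouse, so the pairs form 1 sample and no test between groups is given.

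The mid-lobular label was only partly met. Hepcidin followed a hump along the lobule: over 10 equal bins of a wider position score, the balance of 43 pericentral and periportal genes, Hamp was 319 CPM in the most periportal bin, 733 CPM in bin 4 and 98.5 CPM in the most pericentral bin. Hamp2 had its highest level, 559 CPM, in bin 6 and its lowest, 49.2 CPM, in the most pericentral. Hepcidin-low pairs therefore lay further toward the central vein. The median position score was 0.673 in the high and 0.932 in the low group, and the wider score had medians of 0.459 in high and 0.750 in low pairs. In the most pericentral bin of all pairs, 0.433% belonged to the high group and 35.1% to the low group.

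**Figure D1:**
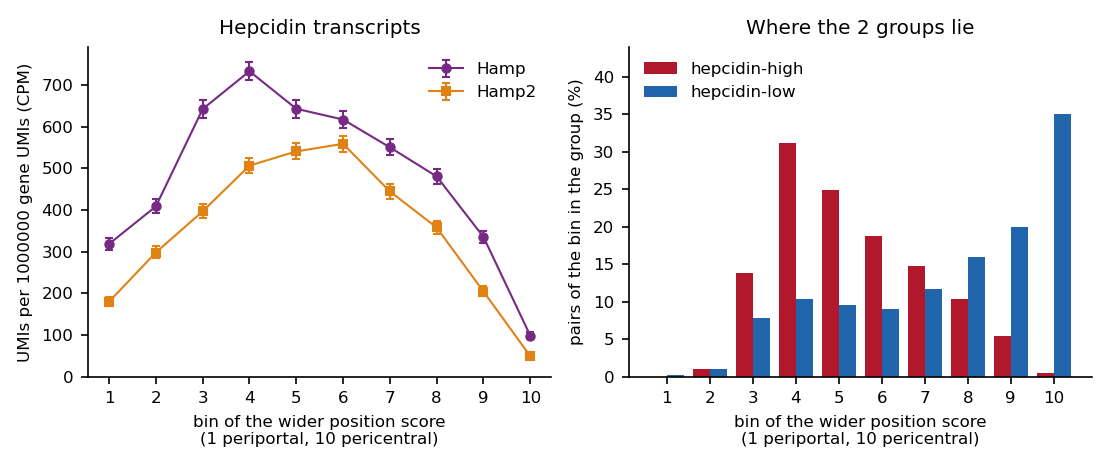
Hamp and Hamp2 levels (CPM, bars: exact Poisson intervals) and the percentage of pairs that belong to the hepcidin-high or hepcidin-low group, over 10 bins of the wider position score of all 4621 pairs, from periportal (1) to pericentral (10). Hamp is highest in bin 4 at 733 CPM, and 35.1% of the most pericentral bin are hepcidin-low pairs.

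Genes of the central vein border showed this shift. A gene was counted as higher or lower when the ratio of its levels passed 1.5-fold in either direction with at least 30 UMIs over both groups. By that rule 349 of 9972 genes (3.5%) were higher and 449 (4.5%) were lower in hepcidin-high pairs, and 43.7% of all measured genes had a log2 ratio above 0. The rule takes no account of counting error, and its counts moved with the floor. They were 105 higher and 188 lower with at least 100 UMIs, and 764 and 835 with at least 10 UMIs. Glul, glutamine synthetase of the innermost pericentral hepatocytes, stood at 128 CPM in high and 839 CPM in low pairs, and Slc1a2, a glutamate transporter of the same cells, at 4.48 and 198 CPM. Of 17 pericentral genes outside the rule, 13 were lower and 0 higher, with a median log2 ratio of -1.09. Of 19 measured periportal genes outside the rule, 10 were higher and 0 lower, with a median of 0.64.

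The 12 genes with the largest and the 12 with the smallest ratio were taken by the rule for named genes. They included periportal genes on the high side and pericentral genes on the low side. On the high side, Gls2, the liver glutaminase of periportal cells, had 164 CPM in high and 54.6 CPM in low pairs (log2 ratio 1.58, interval 1.42 to 1.75). The glycine-cleaving Gldc (1.46), the mitochondrial serine carrier Sfxn1 (1.43), the lipid droplet protein Hsd17b13 (1.29), the histidine-degrading Amdhd1 (1.27) and the asparaginase Aspg (1.24) stood beside it, with Agxt2l1 (1.45) and the chemokine Ccl9 (1.23). The other 4 were Cxcl9, Saa2, Ccnd1 and Orm2, taken up below. On the low side were Slc1a2, Glul, the major urinary protein Mup17 (-3.18), lipoprotein lipase Lpl (-2.54), Serpina7, which binds thyroxine in plasma (-2.43), the phosphatase Lhpp (-2.32) and the cytochromes P450 Cyp2c38, Cyp2c69, Cyp2a5, Cyp2c37 and Cyp2c40, together with Gm13775. With groups taken within blocks, all 12 were lower in every block of wells that held at least 10 UMIs of them, a block being a run of consecutive well numbers the size of a plate.

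To set cells of like position and block against each other, the highest and lowest 25% were also taken within each of the 17 blocks of wells and, inside a block, within bins of about 16 pairs ordered by the wider score. This choice was made after the shift had been seen. The matched groups held 548 high and 548 low pairs with a median wider score of 0.54 in each, and Hamp was 1078 CPM in high and 110 CPM in low pairs. The median depth was 11315.5 UMIs in matched high and 9760 in matched low pairs. Under matching 239 of 9839 genes (2.43%) were higher and 275 (2.79%) lower, and 51.1% of genes had a log2 ratio above 0. The balance was not complete: Glul was still lower, at 205 CPM in high and 390 CPM in low pairs. Both sets of groups are given below, as over all mid-lobular pairs and as matched.

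BMP and SMAD target genes were higher in hepcidin-high pairs under both choices. Over all mid-lobular pairs, 7 of the 8 measured targets had a ratio above 0, 5 of them past 1.5-fold and 0 past it downward. Of all measured genes, 43.7% were above 0, 3.5% past 1.5-fold upward and 4.5% downward. The median log2 ratio was 0.63 for the targets and -0.04 for all measured genes. The summed level of the 8, most of it from Id2 and Id3, was 311 CPM in high and 179 CPM in low pairs. Under matching 7 of 9 were above 0 and 2 past 1.5-fold, beside 51.1% and, upward, 2.43% of all measured genes. The matched median was 0.41 for the targets beside 0.00 for all measured genes. The list was fixed with earlier results of these data known.

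Id2, an inhibitor of DNA-binding factors and a direct BMP target, was the most abundant of them. It had 182 CPM in high (interval 173 to 192) and 94.7 CPM in low pairs (87.6 to 102), with 75.8% of high and 54.3% of low pairs holding a UMI. Under matching its log2 ratio was 0.51 (0.38 to 0.65), and it was higher in 15 of 16 blocks. Id2 also declined along the lobule, at 180 CPM in the most periportal and 75.4 CPM in the most pericentral bin of pairs.

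Id3, of the same family, ran along the lobule from 45.0 CPM (39.6 to 50.9) in bin 2 to 60.7 CPM (54.4 to 67.4) in bin 4. It also differed between the groups. It had 65.4 CPM in high and 41.9 CPM in low pairs over all mid-lobular pairs. Matching left its log2 ratio at 0.74 (0.52 to 0.97), higher in 15 of 16 blocks, beside 0.64 (0.43 to 0.86) without matching. Across 4 equal hepcidin bins, from lowest to highest, Id3 stood at 41.9, 49.5, 58.8 and 65.2 CPM, a rise at each step.

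Id1, a common readout of BMP signals in liver, was sparse. It had 69 UMIs in high and 34 UMIs in low pairs (log2 ratio 0.95, interval 0.33 to 1.58), and under matching 65 and 44 UMIs (0.41, interval -0.16 to 0.997), so the matched difference was within counting error. Only 10.4% of high and 5.20% of low pairs held an Id1 UMI.

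The SMAD genes and Atoh8 were measured at low depth. Smad7, an inhibitory SMAD induced by BMP, had 130 UMIs in high and 85 in low pairs (0.54, interval 0.13 to 0.95), and 0.40 (-0.01 to 0.81) under matching. Smad9, the receptor-regulated SMAD8, had 83 and 43 UMIs (0.87, interval 0.33 to 1.44), and 0.76 (0.21 to 1.33) under matching, but -0.45 when every pair was thinned to 2000 UMIs. Atoh8, a transcription factor induced by BMP that acts on the hepcidin promoter, had 135 and 83 UMIs (0.63, interval 0.22 to 1.04), and 0.54 (0.11 to 0.97) under matching, higher in 9 of 10 blocks. Smad6, the other inhibitory SMAD, had 36 UMIs in high and 29 in low pairs, and Bambi, a decoy BMP receptor, 14 and 19, both within counting error.

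The sum of the target genes, most of it from Id2 and Id3, was higher within 15 of 17 blocks under matching. Its log2 ratios per block had a median of 0.63 and ran up to 0.90, with -0.06 in block 13 and -2.35 in block 1, which held only 4 mid-lobular pairs. Leaving out blocks 1 and 2 left 14 of 15. In the highest hepcidin bin over all mid-lobular pairs, Id2 held 1342 and Id3 479 of the 2303 UMIs of the sum. The other members were also counted singly, in matched blocks with UMIs of the gene in both groups. Smad7 was higher in 12 of 16, Atoh8 in 12 of 15, Smad9 in 8 of 13, Id1 in 7 of 12, Smad6 in 2 of 10 and Bambi in 2 of 5.

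**Figure D2:**
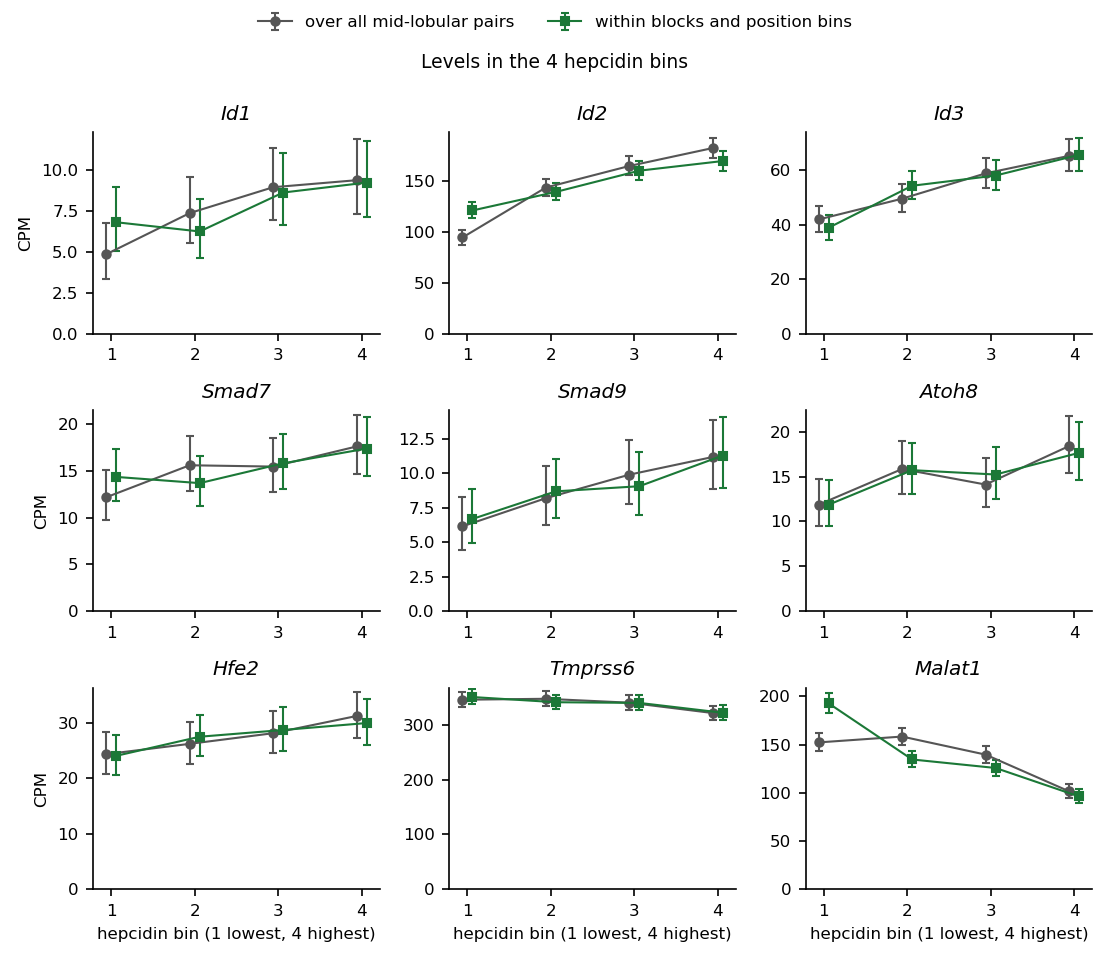
Levels (CPM, bars: exact Poisson intervals) of BMP target genes, of Hfe2 (hemojuvelin), of Tmprss6 and of Malat1 in 4 hepcidin bins of mid-lobular pairs. Bins run from the lowest (1) to the highest (4) and were taken over all of them (grey circles) or within blocks and position bins (green squares). The green bins hold 617, 548, 533 and 533 pairs, so bins 1 and 4 are not the matched groups of the text, which hold 548 each. Id3 stands at 41.9, 49.5, 58.8 and 65.2 CPM over all mid-lobular pairs, and Malat1 at 152, 158, 139.5 and 101 CPM.

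The genes that carry the BMP signal to hepcidin stayed within 1.5-fold. Of 16 measured members of the receptor and iron-sensing list, 0 passed 1.5-fold in either direction under either choice. Of all measured genes, 3.5% passed it upward and 4.5% downward, and 2.43% and 2.79% under matching. The medians of the list were -0.01 and, under matching, 0.13. Hemojuvelin, the BMP co-receptor listed as Hfe2, had 31.4 CPM in high and 24.3 CPM in low pairs (0.37, interval 0.07 to 0.66), and 0.36 (0.06 to 0.68) under matching, higher in 11 of 16 blocks. Acvr1, the type I receptor ALK2, had 77 and 55 UMIs (0.41, interval -0.11 to 0.94). Bmpr1a, the type I receptor ALK3, had 24.2 CPM in high and 25.03 CPM in low pairs. Hfe, the hemochromatosis protein, had 31.1 and 31.2 CPM.

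Tmprss6, the protease that cleaves hemojuvelin and lowers hepcidin, was slightly lower in hepcidin-high pairs. It had 322 CPM in high (interval 309 to 335) and 346 CPM in low pairs (333 to 361). Under matching it had 323 and 359 CPM (log2 ratio -0.15, interval -0.23 to -0.07) and was lower in 14 of 16 blocks. The protease Furin, which also cleaves hemojuvelin, had a matched log2 ratio of -0.19 (-0.34 to -0.04), lower in 11 of 16 blocks.

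Of the list of BMP and activin ligands and antagonists, 3 of 10 measured members had a ratio above 0 over all mid-lobular pairs (median -0.18). Among all measured genes 43.7% had one, 3.5% passed 1.5-fold upward and 4.5% downward. Past 1.5-fold were the activin-binding follistatin Fst upward, with 30 and 13 UMIs, and downward Bmp7, with 8 and 28, Gdf15, a stress-induced member of the TGF-beta family, with 268 and 454, and Inhbe. Under matching 1 of 9 was above 0 (median -0.08), and Inhba, with 26 and 45 UMIs, and Inhbe were past it downward. For all genes under matching, the shares were 51.1% above 0 and 2.79% past 1.5-fold downward. Bmp2 and Bmp6, the ligands known from liver endothelial cells, did not differ beyond counting error. Bmp2 had 65.2 CPM in high (interval 59.5 to 71.3) and 58.9 CPM in low pairs (53.4 to 64.9), and under matching a log2 ratio of -0.08 (-0.27 to 0.11). Bmp6, the ligand tied to iron loading, had 44 UMIs in high and 32 in low pairs (0.38, interval -0.31 to 1.09), and 38 and 36 under matching. Per 1000 UMIs of 20 endothelial markers, Bmp2 was 75.4 in high and 73.8 in low pairs, and Bmp6 6.91 and 5.73. At these counts the interval still allows Bmp6 to be up to 1.09 higher or 0.31 lower on the log2 scale. The markers themselves summed to 864 CPM in high and 798 CPM in low pairs, and to 853 and 918 CPM under matching. In such pairs fewer endothelial cells and less RNA per endothelial cell cannot be told apart. Inhbe, which encodes a hepatocyte activin subunit, was lower, with 50 UMIs in high and 95 in low pairs (-1.001, interval -1.53 to -0.49), and -0.84 (-1.34 to -0.34) under matching.

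Acute-phase transcripts as a list were higher in hepcidin-high pairs over all mid-lobular pairs, while under matching the list was near 0. Of 27 measured members, 24 had a ratio above 0 and 5 passed 1.5-fold upward (median 0.28), beside 43.7% and 3.5% of all measured genes. Under matching 12 of 26 were above 0 and 0 passed 1.5-fold (median -0.01), beside 51.1% and, upward, 2.43% of all genes. The 5 were the serum amyloids Saa1, Saa2 and Saa3, the orosomucoid Orm2 and lipocalin 2 (Lcn2). Lcn2 had 196 UMIs in high and 78 in low pairs (1.25, interval 0.87 to 1.65), but 106 and 104 under matching (-0.12, interval -0.53 to 0.28), and -0.23 among pairs between the 40th and 60th percentile of the position score. Saa2 had 703 CPM in high and 167 CPM in low pairs (2.07, interval 1.98 to 2.16), and 0.50 (0.42 to 0.59) under matching. Saa1 had 907 and 306 CPM (1.57), and 0.32 under matching. Saa1 and Saa2 transcripts are 94.4% identical, and 93.3% over their last 150 bases with 10 differences, so their reads may be shared between the symbols.

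These acute-phase UMIs sat in few pairs and few blocks. A Saa2 UMI was present in 14.2% of high and 10.4% of low pairs, and the 10 richest pairs held 76.6% of its UMIs in the high and 93.9% in the low group. Blocks 1 and 2, with 4 and 34 mid-lobular pairs, had Saa1 at 14495 and 12517 CPM, against 77.7 to 382 CPM in the other 15 blocks. Hamp2 was also highest in these blocks, at 2099 and 938 CPM against 220 to 660 CPM elsewhere, whereas Hamp, at 584 and 329 CPM, was not. Orm2 stood at 1190 and 431 CPM in these blocks and at no more than 14.6 CPM in the 15 others. Without blocks 1 and 2 the log2 ratio was 0.73 for Saa1, 2.58 for Saa2 and 0.43 for Orm2. Whether these blocks differ by mouse, library or state was not tested.

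The abundant acute-phase proteins were nearly level under matching. Haptoglobin (Hp) had a matched log2 ratio of -0.03, the fibrinogen chains Fga, Fgb and Fgg between -0.01 and 0.02, and complement C3 -0.15 (lower in 15 of 17 blocks). Serum amyloid P, Apcs, was higher at 0.21 (0.07 to 0.35), higher in 15 of 17 blocks. Of the 14 genes of the interleukin-6 and STAT3 pathway, 6 had a ratio above 0 under either choice. Of all measured genes, 43.7% did so over all mid-lobular pairs and 51.1% under matching. The all-gene shares past 1.5-fold were 3.5% upward and 4.5% downward without matching, and 2.43% and 2.79% under matching. Over all mid-lobular pairs Tyk2 and Osmr passed 1.5-fold upward and Cebpd, a transcription factor of the acute-phase response, downward, at 106 UMIs in high and 166 in low pairs, and 0 genes passed it under matching. The receptor Il6ra was lower in high pairs, at 88.7 CPM against 109 CPM in low pairs, and Socs3, the feedback gene induced by STAT3, had 74 and 75 UMIs.

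**Figure D3:**
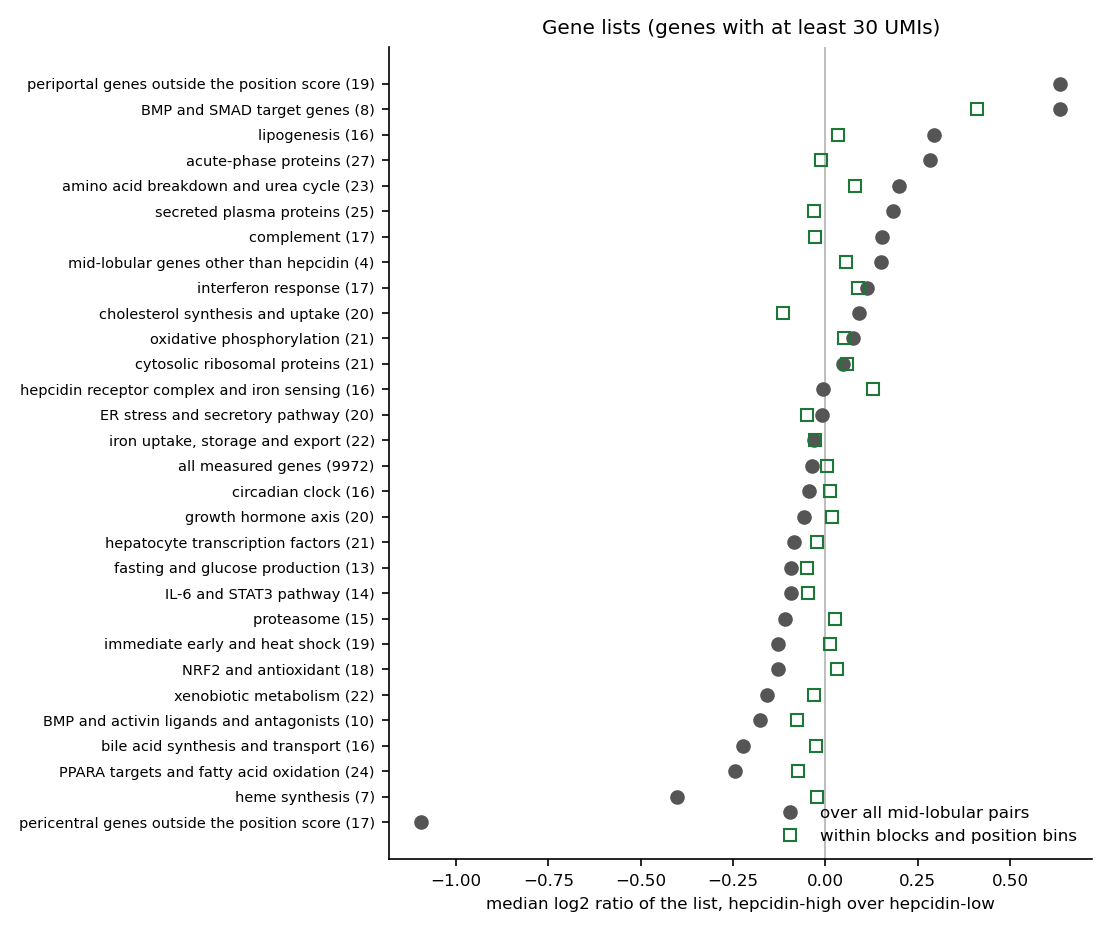
Median log2 ratio (hepcidin-high over hepcidin-low) of each gene list, over all mid-lobular pairs (grey circles) and within blocks and position bins (green open squares), with the number of genes of at least 30 UMIs in brackets. Matched squares are missing for the lists that make up the wider score. The BMP and SMAD target genes stay at 0.41 under matching while the acute-phase proteins move to -0.01.

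Genes that move iron itself were, as a list, near 0. Of 22 measured genes of iron uptake, storage and export, 1 passed 1.5-fold upward over all mid-lobular pairs. This was the metalloreductase Steap2, with 30 and 14 UMIs. Under matching 1 passed it downward, the metalloreductase Steap3 with 11 and 19 UMIs. Among all measured genes 3.5% passed it upward without matching and 2.79% downward under matching. The median of the list was -0.03 under either choice. Ferroportin, Slc40a1, the target of hepcidin, had 69.2 CPM in high and 53.2 CPM in low pairs (0.38, interval 0.18 to 0.58), and 0.15 (-0.04 to 0.35) under matching. The ferritin heavy chain Fth1 had 1706 and 1663 CPM, and a matched log2 ratio of 0.10 (0.06 to 0.13), higher in 14 of 17 blocks. The ferritin light chain Ftl1 had 30.6 and 31.0 CPM. Transferrin, Trf, had 12037 and 10669 CPM, and a matched log2 ratio of -0.05. The scavenger receptor Lrp1, which takes up heme bound to hemopexin, was lower at -0.37 and, under matching, -0.27 (-0.38 to -0.16), lower in 14 of 16 blocks. All 7 measured heme synthesis genes had ratios below 0 over all mid-lobular pairs (median -0.40, Alas1 -0.69), beside 43.7% of all genes above 0. Their median was -0.02 under matching, with Alas1, the rate-limiting enzyme of heme synthesis in liver, at 0.07.

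Outside the hepcidin pathway, Ccnd1 and Malat1 headed the genes named after matching. Ccnd1, cyclin D1 of the G1 phase, had 74.7 CPM in high and 28.5 CPM in low pairs (1.39, interval 1.15 to 1.63), and a UMI in 48.7% of high and 23.3% of low pairs. Under matching it had 72.7 and 42.0 CPM (0.79, interval 0.58 to 1.01), higher in 15 of 16 blocks. Markers of cycling cells summed to 13.4 CPM in high and 10.0 CPM in low pairs, and to 12.8 and 12.3 CPM under matching. Malat1, a long noncoding RNA retained in the nucleus, was lower, at 101 CPM in high and 152 CPM in low pairs. Under matching it had 98.5 and 198 CPM (-1.01, interval -1.15 to -0.88) and was lower in 16 of 16 blocks.

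By the rule for named genes applied to the matched groups, the 12 on the high side were Ccnd1, Id3, Ssbp1 (0.57), Gm14303 (0.56), Atoh8, Stx4a (0.52), Id2, Exosc1 (0.51), Amdhd1 (0.49), Coro1c (0.44), Rwdd1 (0.44) and Tmx2 (0.44). The 12 on the low side were Malat1, Mup17 (-0.88), Lpl (-0.78), Cyp2c38 (-0.78), Cyp4a14 (-0.70), Cyp2c40 (-0.65), Adck5 (-0.63), Lhpp (-0.62), Rdh9 (-0.59), Gstm2 (-0.54), Tenc1 (-0.52) and Acot1 (-0.52). Of these, 5 (Mup17, Lpl, Cyp2c38, Cyp2c40 and Lhpp) were also among the 12 on the low side without matching, and Glul was still lower in the matched groups.

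Targets of PPARA, the nuclear receptor of fatty acid breakdown, were lower over all mid-lobular pairs. All 24 measured members had ratios below 0 over all mid-lobular pairs, 6 past 1.5-fold (median -0.24). Of all measured genes, 43.7% were above 0 and 4.5% past 1.5-fold downward. Under matching, with 51.1% of all genes above 0 and 2.79% past 1.5-fold downward, 20 members were below 0 and 1 past 1.5-fold (median -0.08). That 1 was Cyp4a14, a fatty acid omega-hydroxylase, with 46.7 CPM in high and 76.1 CPM in low pairs (-0.70, interval -0.91 to -0.50), lower in 15 of 15 blocks. Its relative Cyp4a10 had -0.45 (-0.56 to -0.33) and the acyl-CoA thioesterase Acot1 -0.52 (-0.70 to -0.34). High and low pairs were also taken at the pericentral end, among pairs with a position score of 1. There 1 of 24 members was above 0 (median -0.28), beside 42.7% of all measured genes. At the periportal end, among pairs up to the 25th percentile, 12 of 23 were above 0 (median 0.04), beside 51.8% of all measured genes. Cyp4a14 had 0.37 (-0.09 to 0.85) at that end and Acot1 0.28 (-0.21 to 0.79), each within counting error. Esr1, the estrogen receptor of hepatocytes, was higher at 0.55 (0.27 to 0.82), and at 0.39 (0.11 to 0.67) under matching, in 12 of 16 blocks.

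**Figure D4:**
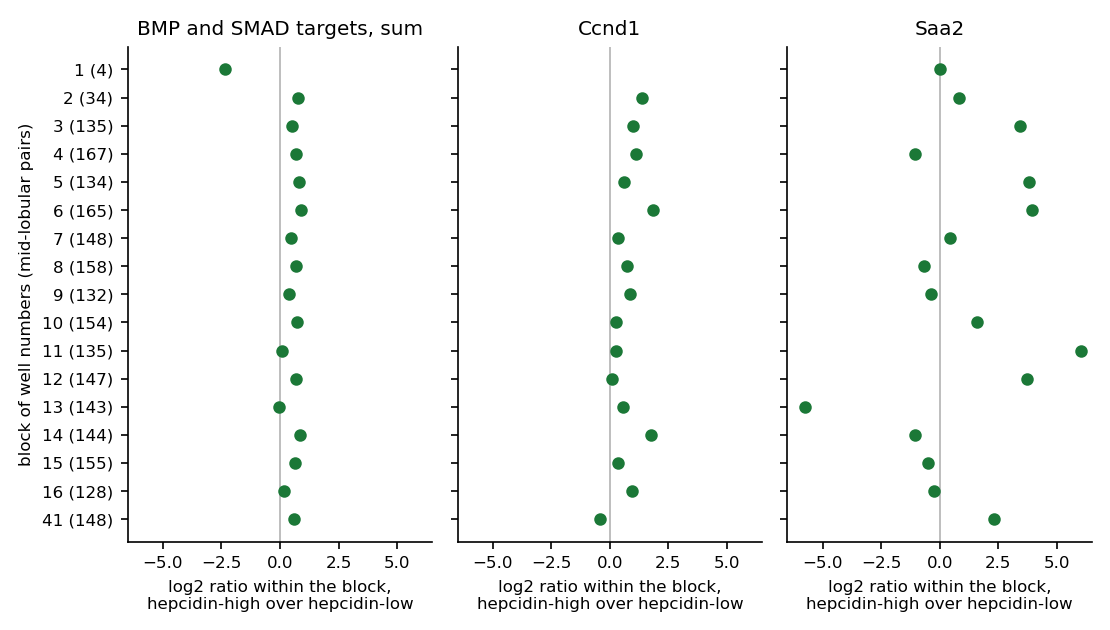
Log2 ratio (hepcidin-high over hepcidin-low) of the BMP and SMAD target sum, Ccnd1 and Saa2 in each block of well numbers, with the highest and lowest 25% taken within the block and position bins and the number of mid-lobular pairs in brackets (block 1 has no Ccnd1 value). The target sum is above 0 in 15 of 17 blocks and Ccnd1 in 15 of 16, while Saa2 runs from -5.75 to 6.01.

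Since Hamp and Hamp2 were summed, matched groups were also formed from each gene alone. The highest 25% by Hamp and by Hamp2 shared 166 pairs, 30.3% of each, and the lowest shared 244, 44.5% of each. Of the pairs highest by Hamp, 84 were among the lowest by Hamp2, and of those lowest by Hamp, 89 were among the highest by Hamp2. Each of these groups holds about 25% of the mid-lobular pairs. Hamp2 differed by a log2 ratio of 0.77 between groups formed on Hamp, and Hamp by 0.72 between groups formed on Hamp2. The 2 transcripts are 94.6% identical over their aligned length. Their last 150 bases are 90.7% identical where aligned, with 13 differences and 20 gap bases, so 3′ reads could in part be shared between them.

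BMP targets were higher in groups formed on Hamp. The median log2 ratio of 9 measured targets was 0.50 for Hamp, with 7 above 0 (all measured genes 51.5% above 0 and 2.28% past 1.5-fold upward, 2.31% downward). It was 0.07 over 8 measured targets for Hamp2, with 4 above 0 (all measured genes 49.1% above 0 and 2.21% past 1.5-fold upward, 2.73% downward). Id3 had 0.73 (0.51 to 0.96) for Hamp and 0.22 (0.01 to 0.44) for Hamp2, and Smad7 0.64 (0.21 to 1.07) and -0.09 (-0.50 to 0.31). Id2 differed in both, at 0.43 and 0.33. Tmprss6 had -0.18 (-0.27 to -0.10) for Hamp and 0.00 (-0.08 to 0.09) for Hamp2. Ccnd1 had 1.11 (0.88 to 1.35) for Hamp and 0.14 (-0.07 to 0.35) for Hamp2. The difference between the 2 choices was not tested, because they share pairs. Over all 4621 pairs 74.4% held a Hamp UMI and 63.3% a Hamp2 UMI, and pairs tied at 0 were taken in random order. The part of this unlike detection in the difference was not tested.

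Cxcl9, a chemokine induced by interferon gamma, differed in groups formed on Hamp2 and not beyond counting error in groups formed on Hamp. It had 82.5 CPM in hepcidin-high and 13.02 CPM in hepcidin-low pairs (2.66, interval 2.34 to 3.00). Under matching it had 54.4 CPM in high and 18.1 CPM in low pairs (1.59, interval 1.28 to 1.90), but was higher in 9 and lower in 4 of the 13 blocks with at least 10 UMIs. Its log2 ratio was 1.87 (1.57 to 2.18) in groups formed on Hamp2 and -0.09 (-0.35 to 0.18) in groups formed on Hamp. A Cxcl9 UMI was present in 12.5% of high and 8.96% of low pairs, and the 10 richest pairs held 83.9% of its UMIs in the high and 53.8% in the low group, with up to 108 in 1 high pair. Under matching the 10 richest pairs held 76.5% in the high and 50% in the low group. In single non-parenchymal cells Cxcl9 stood at 262 CPM, against 36.1 CPM over all pairs. The part of the non-parenchymal partner in its difference was not tested. The interferon response list as a whole had medians of 0.11 and, under matching, 0.09, with Irf7 at 0.29 (0.08 to 0.51) and Ifit1 at -0.59 (-1.06 to -0.12) under matching. Malat1 was lower in both choices, at -0.88 for Hamp and -0.76 for Hamp2.

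**Figure D5:**
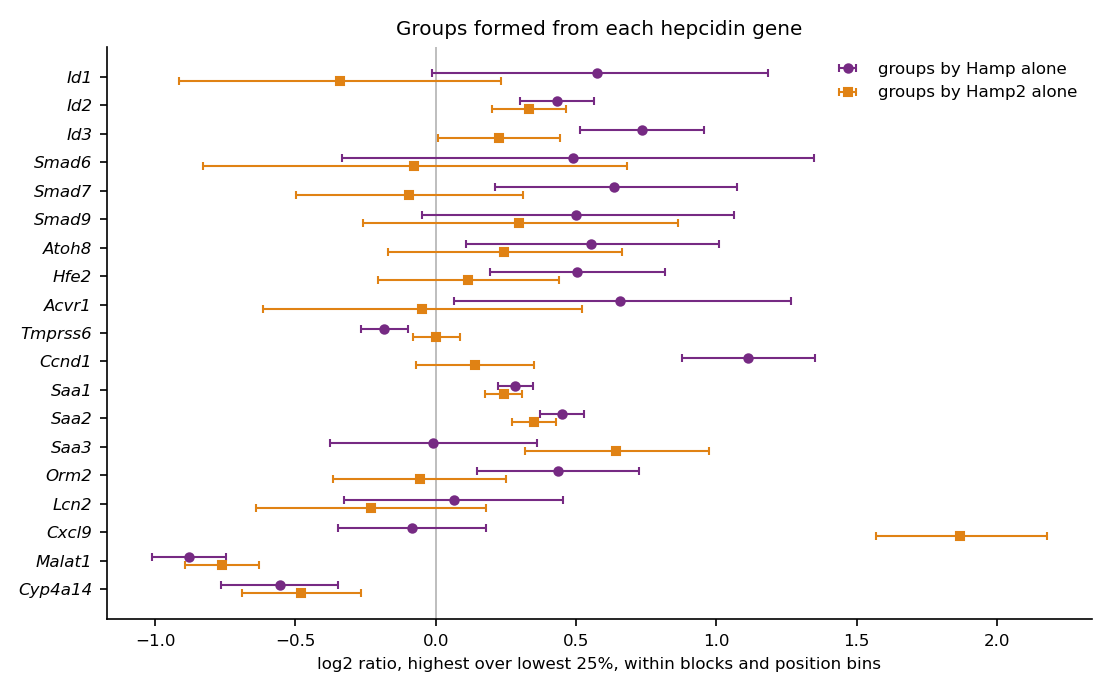
Log2 ratio (highest over lowest 25%, bars: exact conditional binomial intervals) of named genes in matched groups formed on Hamp alone (purple circles) and on Hamp2 alone (orange squares). Id3 lies at 0.73 for Hamp and 0.22 for Hamp2, and Cxcl9 at -0.09 for Hamp and 1.87 for Hamp2.

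Markers of other cell types differed widely in depth. Kupffer cell markers summed to 46 UMIs in high and 43 in low pairs, with Timd4 and Emr1 at 0. Of 8 T or NK cell markers 0 had a UMI in either group, and neutrophil markers had 2 UMIs in high and 1 in low pairs. B or plasma cell markers had 0 in high and 13 in low pairs, all of 1 gene and 11 of them in 1 pair. Stellate cell markers had 499 UMIs (67.7 CPM) in high and 433 UMIs (61.9 CPM) in low pairs. The erythroid list had 826 UMIs (112 CPM) in high and 774 UMIs (111 CPM) in low pairs, and 115 and 108 CPM under matching. All of these were from Alas2, the erythroid enzyme of heme synthesis, while Hbb-b1, Hba-a1 and Slc4a1 were at 0. Of the cholangiocyte markers Krt19, Krt7, Epcam and Cftr were at 0, and the list summed to 45 UMIs in high and 18 in low pairs, and to 37 and 30 under matching; its part in the results was not tested. Pericentral endothelial markers stood at 62.9 CPM in high and 105 CPM in low pairs and periportal ones at 38.6 and 27.0 CPM. Under matching these were 74.0 and 88.9 CPM, and 34.3 and 41.4 CPM.

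The highest and lowest 25% by hepcidin were also taken among pairs outside the middle. In pairs at or below the 25th percentile of the position score, the median log2 ratio of the BMP targets was 0.74, with 6 of 7 measured targets above 0 beside 51.8% of all measured genes. In pairs with a score of 1 it was 0.35, with 6 of 7 above 0 beside 42.7% of all measured genes. At the periportal end Id1 had 1.09, Smad9 0.87, Atoh8 0.77, Id2 0.74, Id3 0.36, Smad7 0.23 (-0.40 to 0.88) and Smad6 -0.48 (-1.40 to 0.43). At the pericentral end Id1 had 1.29, Id2 0.98, Id3 0.54, Atoh8 0.35 (-0.29 to 0.99), Smad9 0.34 (-0.47 to 1.16), Smad7 0.02 (-0.61 to 0.64) and Smad6 -0.42 (-1.50 to 0.63). The intervals of Smad7 and Smad6 thus held 0 at both ends, and those of Atoh8 and Smad9 held it at the pericentral end. Glul had a log2 ratio of -0.22 (-0.45 to 0.01) in pairs up to the 25th percentile and of -3.39 (-3.52 to -3.26) in pairs with a score of 1, where the wider score had medians of 0.648 in high and 0.869 in low pairs.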

How the data were processed

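The labels describe 3′ single-cell RNA sequencing (MARS-seq) of sorted pairs in 17 libraries of 3 mice and of single non-parenchymal cells in 11 libraries of 2 mice. The authors deposited raw UMI counts per gene and well, with no normalization. Per the submitters' processing notes, bcl2fastq 2.15.0.4 and genome build mm9 were used, with the aligner and annotation not given in the sources used here. Spike-in rows of the pair table (92 rows, 0.715% of UMIs) were left out. The 4621 pairs held 2423 to 49311 gene UMIs, with a median of 10450.

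No source ties wells to libraries or mice, so the pair table counts as 1 sample, and paired or replicate tests were not made. UMIs were summed per group and given per 1000000 gene UMIs (CPM) with exact Poisson intervals. Log2 ratios have exact conditional binomial intervals. All intervals are at 95%, and UMIs of 1 cell are not independent samples of a condition. Blocks are runs of well numbers the size of a plate. No source says that they are plates or libraries. The members and the lists were chosen with earlier results of these data known. Genes are named by a rule: at least 200 UMIs, an interval that leaves out 0, and a choice within blocks that keeps the direction in at least 80% of at least 8 blocks with 10 or more UMIs, the 12 largest and 12 smallest ratios outside the rule genes, plus list members with large ratios and a fixed set of hepcidin regulators. Matching by blocks and the wider score, groups by each gene within it, the inclusive limits and leaving out blocks 1 and 2 together were added after the data were seen. Other genes outside the rule were picked after their values were seen. Scripts were tested on simulated data. Doublets were not called, since every well was sorted to hold a pair. Python 3.11.15, numpy 2.4.6, scipy 1.17.1, pandas 2.3.3, matplotlib 3.10.9 and Biopython 1.88 were used.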

Additional observations from a re-analysis of the deposited data

How the results depend on the processing

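The hepcidin difference, a log2 ratio of 5.13 that the choice of groups sets, was 4.73 with groups taken within blocks, 4.30 within 10 bins of the position score, 4.22 within blocks and both sides of the median score, 4.03 with groups and levels from separate random parts of the UMIs, 3.22 by Hamp alone, 3.07 by Hamp2 alone, 2.66 for pairs above against up to the median, 4.67 between the 40th and 60th percentile, 5.41 in pairs up to the 25th percentile, 7.98 in pairs with a score of 1, 3.97 within 20 bins of the wider score, 3.58 matched, 2.25 and 2.151 matched by Hamp and by Hamp2 alone, and 5.83 with the limits included. It was at least 9.89 when thinned to 2000 UMIs and at least 11.35 between the highest and lowest 10%, both against a floor of 3 counts over the low group. The counts of 349 higher and 449 lower genes were 105 and 188 with at least 100 UMIs, 764 and 835 with at least 10 UMIs, 224 and 227 matched by Hamp, and 216 and 267 matched by Hamp2. The count of lower genes was 270 within 20 bins of the wider score and 275 matched. The median of the BMP and SMAD targets, 0.63, was 0.14 by Hamp2 alone and 0.073 by Hamp2 alone when matched. The acute-phase median of 0.28 was 0.15 within bins of the score (0.154), 0.133 within blocks and both sides of its median, 0.106 thinned, 0.142 by Hamp alone, 0.148 above against up to the median, 0.0967 in the narrower middle, 0.193 as a mean of pair shares, 0.020 up to the 25th percentile, 0.062 within 20 bins of the wider score, -0.011 matched, 0.0027 and -0.0028 matched by Hamp and Hamp2 alone, and 0.351 with the limits included. The endothelial median of 0.11 was -0.26 in pairs up to the 25th percentile. Thinning reversed Ssbp1 (-0.37), Tenc1 (0.32) and Smad9 (-0.45). Groups by Hamp alone reversed Saa1 (-0.13) and, when matched, Cxcl9 (-0.0855) and Saa3 (-0.0086). Groups by Hamp2 alone reversed Tmprss6 (0.016) and, when matched, Tmprss6 (0.0025), Lcn2 (-0.23), Orm2 (-0.0577), Id1 (-0.34) and Smad7 (-0.0939). Lcn2 was -0.23 in the narrower middle and -0.12 matched. The cause was not tested. Of 2066 values of 55 single genes under the alternatives, 1640 stayed within the counting interval, 412 left it and 14 turned a direction whose interval had left out 0. Leaving out each block in turn gave 4.96 to 5.20 for hepcidin, 331 to 354 higher and 389 to 475 lower genes, and medians of 0.56 to 0.70 for BMP and SMAD targets, 0.25 to 0.30 for acute-phase proteins, -0.07 to 0.02 for iron genes and 0.06 to 0.16 for endothelial markers. No paired analysis was possible because the wells carry no replicate number of a library or mouse. At this depth Id1, Bmp6, Smad6 and Bambi held too few UMIs to resolve small differences.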
